A study of Homo sapiens with 24 samples.

Results

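The collagen genes were examined as 1 family, made up of every gene whose symbol reads COL, a type number, A and a chain number. Of these, 44 were listed in at least 1 of 4 expression tables and 34 were listed in all 4. They were divided by the kind of assembly that their chains form, into 11 fibrillar genes, 6 basement membrane genes (type IV) and 27 others. In Hs578T, 42 of them were listed among 19283 genes, and in HCC70, 34 among 18248. The sgRNA experiment listed 44 among 60651 genes and the vector experiment 44 among 23792. None of the genes listed for the sorted lines was at 0 in all 6 libraries of its line.

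RNA-Seq of 3 triple-negative breast cancer (TNBC) cell lines gave 24 libraries in 8 groups of 3 biological replicates, in a study of KIF20A, a mitotic kinesin, in breast cancer stem cells (BCSCs). Wild-type Hs578T and HCC70 cells were sorted by flow cytometry into BCSCs, marked CD24-CD44+ and ALDH+, and non-BCSCs, which lacked both phenotypes. MDA-MB-231 cells carried a control sgRNA (sgCtrl), sgRNA #1 against KIF20A (KIF20A sg1), an empty vector (EV) or a vector labelled KIF20A overexpression (KIF20A OE). The 6 libraries of each comparison shared 1 batch label and no batch label was shared between comparisons, so for Hs578T and HCC70 the line and the batch cannot be told apart. By the methods of the study, engineered cells were infected with lentivirus and selected with puromycin. Whether each was 1 clone or a pool is not given in the sources used here, and only 1 sgRNA against KIF20A was sequenced. In bulk RNA of this kind, fewer cells of a type and less RNA per cell cannot be told apart.

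Collagens are mostly secreted proteins whose chains wind around each other into a helix. Fibrillar collagens, chiefly types I and III, build the fibers of connective tissue, whereas type IV collagen forms the sheet-like network of basement membranes. Fibroblasts are the main source of fibrillar collagen in breast tumors, while carcinoma cells differ widely in how much collagen they make.

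Values were TPM (reads per exon length, set to the same sum in every library) for the sorted lines, a CPM-like value (reads over 1 scaling factor for each library) for the sgRNA experiment and CPM (reads per library total) for the vector experiment. Each Hs578T library held 28189500 to 33715701 reads, as recovered from these values. HCC70 libraries held 24681218 to 33559417, sgRNA libraries 41424338 to 51018667 and vector libraries 15971297 to 22182293. Genes whose mean over the 6 libraries of a comparison reached 1 were tested by limma on log2(value + 1), with p adjusted by the Benjamini-Hochberg method over all genes tested and called at an adjusted p under 0.05. A log2 fold change on this scale understates the change of genes with low values.

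Some libraries stood apart in RNA from their label or their group. KIF20A RNA was at 153, 173 and 156 in sgCtrl and 122, 145 and 91.1 in KIF20A sg1 (adjusted p = 0.69, limma). The paper describes KIF20A as depleted by its sgRNAs in MDA-MB-231 cells, with an immunoblot of the protein, which these RNA values do not measure. In the vector experiment KIF20A was at 101.1, 143 and 124 CPM in EV against 1348, 269 and 896 CPM in those labelled KIF20A OE (adjusted p = 0.00249, limma). The latter 3, called OE-labelled libraries from here on, differed from the EV cells in many markers. CD44 was at 523 to 788 CPM in EV and at 0.125 to 1.23 CPM in them, and KRT19 at 744 to 880 CPM and at 0 to 0.0902 CPM. Of 7 epithelial markers, 5 were lower (KRT8 still at 234 to 329 CPM). CDH1 was higher, at 0 to 0.706 CPM in EV against 2.00 to 4.44 CPM. Of 5 mesenchymal markers, CDH2 and TWIST1 were higher and VIM, FN1 and ZEB1 lower. The sorting gene ALDH1A3 was higher and CD24 lower. Over all genes tested, 46.2% were called higher and 23.4% lower. Of 7 developing kidney markers, PAX2, WT1, EYA1, LHX1 and SALL1 were higher in these libraries and PAX8 was lower, with a summed level of 92.0 to 104 CPM in EV against 156 to 169 CPM in them. Every value of that comparison rests on these 3 libraries, and whether they hold another cell population was not tested. In the sgRNA table, sgCtrl replicate 3 stood apart from the other sgCtrl libraries in many collagen genes, and results are given with and without it.

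**Figure D1:**
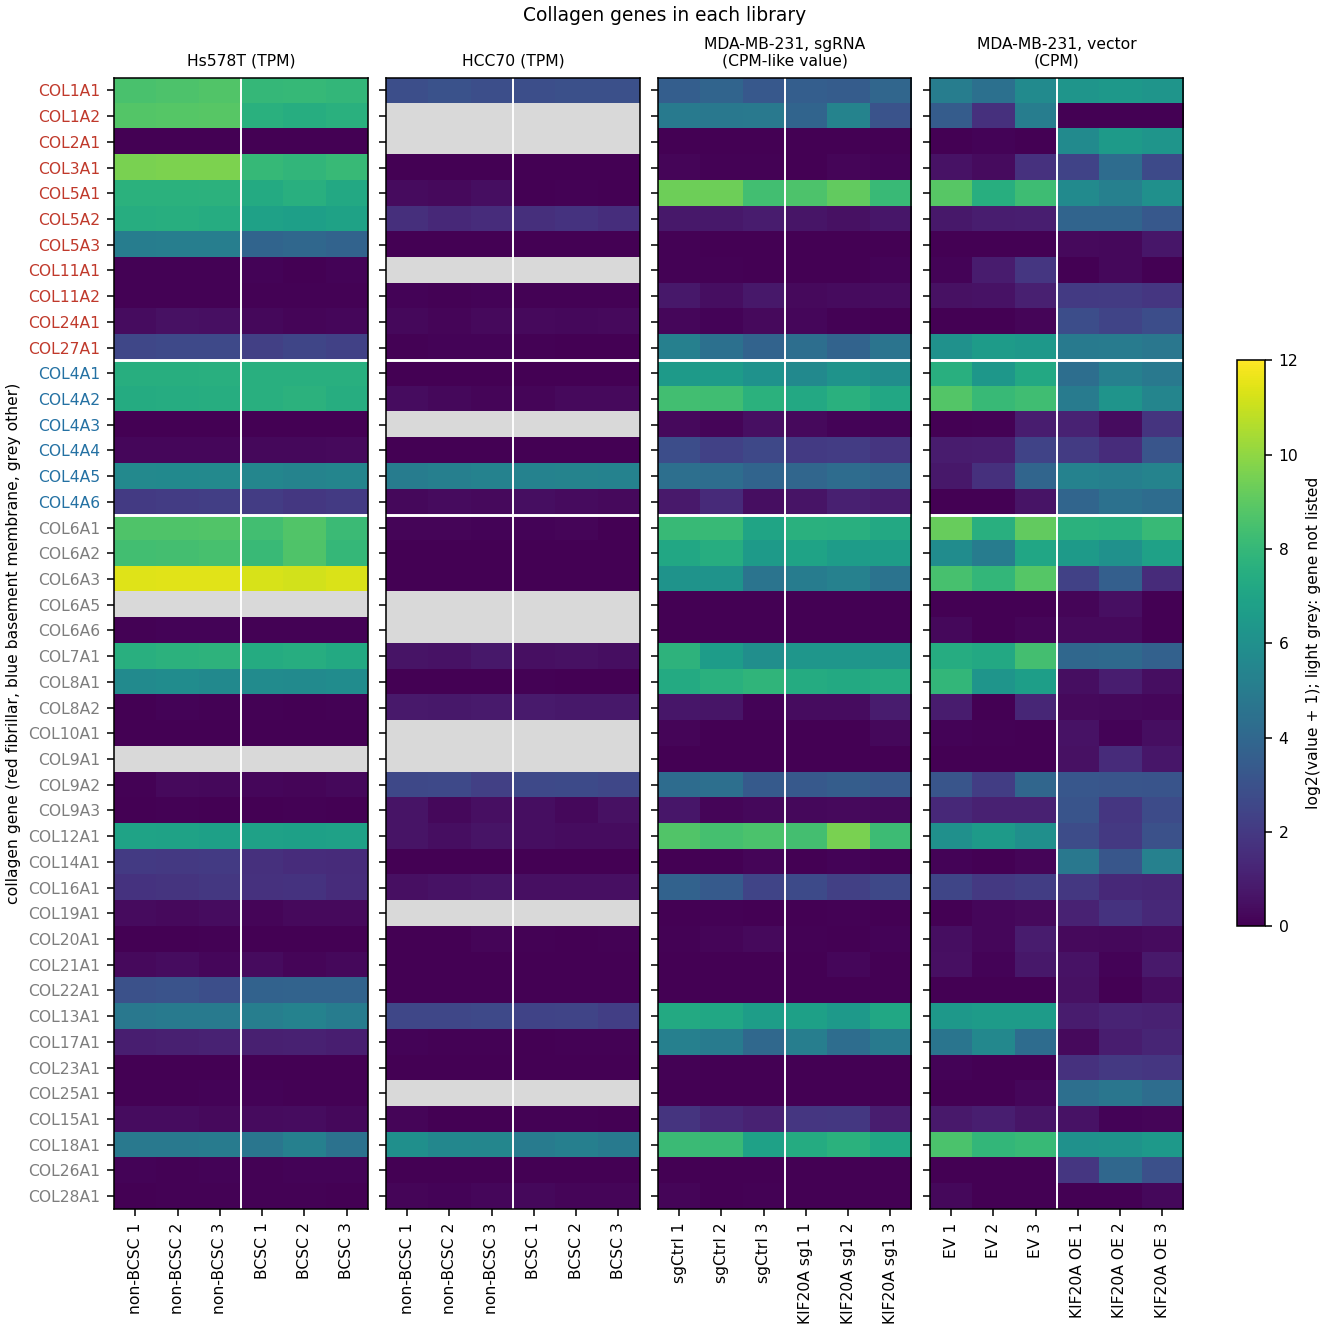
Color gives log2(value + 1) for each of the 44 collagen genes (rows, grouped as fibrillar, basement membrane and other) in each of the 24 libraries (columns), with 1 panel per table and its unit in the title. Hs578T held the broadest set at high values, HCC70 held mainly COL18A1, COL4A5 and COL1A1, and in the vector table the genes that were high in EV and in the OE-labelled libraries differed. Units differ between panels.

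Type IV collagen is encoded by 6 genes that lie in pairs with their starts head to head, so that both genes of a pair are read outward from a shared stretch of DNA. COL4A1 (chr13:110148963-110307157, minus strand, GENCODE 44 on GRCh38) and COL4A2 (chr13:110305812-110513209, plus strand) encode the chains found in nearly all basement membranes. COL4A5 (chrX:108439838-108697545, plus strand) and COL4A6 (chrX:108155607-108439497, minus strand) encode chains of more restricted membranes. The DNA at these starts is shown because both genes of each of these pairs moved the same way in the vector experiment, where most genes tested were called. Whether the shared DNA has a part in this was not tested. In the remaining pair, COL4A3 and COL4A4, with starts 419 bases apart, COL4A4 did not pass there and COL4A3 was under the minimum. In the RefSeq promoter table (GRCh38.p14), which held 32 of the 44 collagen genes, the starts of COL4A1 and COL4A2 lay 127 bases apart and those of COL4A5 and COL4A6 lay 380 bases apart. No entry was found there for COL14A1, COL1A1, COL1A2, COL20A1, COL22A1, COL2A1, COL3A1, COL5A2, COL6A1, COL6A5, COL8A1 and COL9A3. The plus strand of the 126 bases between the starts of COL4A1 and COL4A2 (chr13:110307158-110307283) and of the 250 bases before the start of COL4A5 (chrX:108439588-108439837) is given 5′ to 3′. Capitals mark a GC box, searched as the letters GGGCGG, or a box with the letters CCAAT, on either strand. The letters TATAAA of the TATA box were searched in the same way and were absent from both stretches.
COL4A1-COL4A2: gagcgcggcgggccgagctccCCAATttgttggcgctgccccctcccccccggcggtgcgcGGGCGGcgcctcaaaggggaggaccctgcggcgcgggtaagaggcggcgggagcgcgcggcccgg
COL4A5: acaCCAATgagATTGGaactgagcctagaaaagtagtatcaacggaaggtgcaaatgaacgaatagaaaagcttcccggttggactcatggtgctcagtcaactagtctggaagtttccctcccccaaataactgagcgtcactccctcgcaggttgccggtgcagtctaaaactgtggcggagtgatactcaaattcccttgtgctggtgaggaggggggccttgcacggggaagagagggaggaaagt

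The COL4A1-COL4A2 stretch held 1 GC box and 1 CCAAT box, with 80.2% G or C, and the COL4A5 stretch held 2 CCAAT boxes, 1 on each strand, with 51.2% G or C. Over the 300 base windows of all promoters in the table, 45% held a GC box, 34.6% a CCAAT box and 11.5% a TATA box, against 54.5%, 31.8% and 18.2% of the 44 windows of the 32 collagen genes. These matches describe letters only.

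In Hs578T cells, most fibrillar collagen genes were lower in BCSCs than in non-BCSCs, and no type IV gene passed the test in either direction. The collagens together made up 0.647% ± 0.0152 of all TPM in non-BCSCs and 0.498% ± 0.00629 in BCSCs (SD, n = 3). The summed fibrillar level went from 2052 ± 63.3 TPM to 996 ± 4.31 TPM, the type IV sum from 410 ± 7.45 to 425 ± 13.2 TPM, and the sum of the others from 4008 ± 81.2 to 3559 ± 55.2 TPM. Of 23 collagen genes tested, 7 were lower and 2 were higher in BCSCs, where 4.26% of 13324 genes tested were called lower and 2.9% higher. By type, 5 of 7 fibrillar genes were lower, 0 of 4 type IV genes were called by limma (1 at an unadjusted p under 0.05, and 1 each by edgeR and DESeq2), and 2 of 12 others were lower and 2 higher. The median log2 fold change was -0.67 for the fibrillar genes, -0.03 for type IV and -0.12 for the others, beside -0.01 over all genes tested. All 7 fibrillar genes tested had BCSC values below every non-BCSC value, as did 12 of all 23, against 17% of genes tested, and 4 collagen genes lay wholly above, against 12%.

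**Figure D2:**
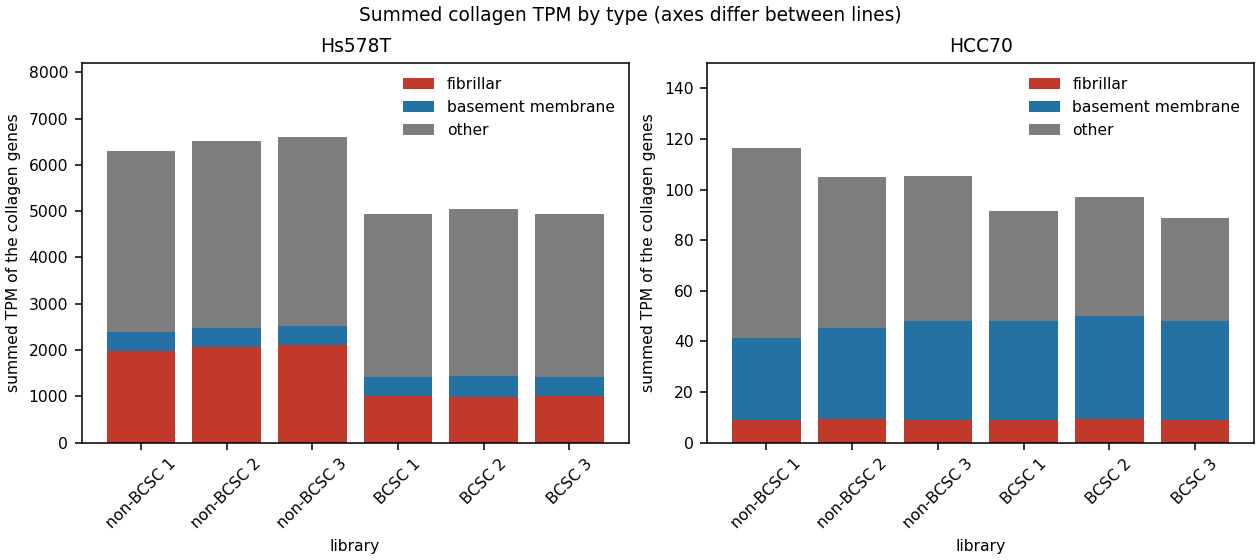
Stacked bars give the summed TPM of the collagen genes in each library of Hs578T (left) and HCC70 (right), split into fibrillar, basement membrane and other genes, on axes of different length. In Hs578T the fibrillar part was 2052 TPM on average in non-BCSCs against 996 TPM in BCSCs, and in HCC70 the largest parts were other and basement membrane genes.

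Both type I genes and the type III gene were lower in BCSCs. COL3A1 (chr2:188974373-189012746), the only chain of type III collagen, was at 757, 781 and 784 TPM in non-BCSCs against 262, 235 and 271 TPM in BCSCs. Every BCSC library was thus far below every non-BCSC library, with a 3.02-fold lower mean and a log2 fold change of -1.59 ± 0.06 (SE, adjusted p = 1.88e-05, limma). COL1A2 (chr7:94394895-94431227), the second chain of type I collagen, was at 440, 460 and 465 TPM against 194, 175 and 198 TPM. COL1A1 (chr17:50184101-50201632), the chain of which type I collagen holds most copies, was at 374, 399 and 431 TPM against 250, 265 and 242 TPM. Both type I genes separated the groups without overlap, with log2 fold changes of -1.27 ± 0.06 for COL1A2 (adjusted p = 4.29e-05) and -0.67 ± 0.06 for COL1A1 (adjusted p = 0.00162).

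The ratio of the 2 type I chains shifted, which is given here with no test. COL1A1 per COL1A2, in TPM, was 0.852, 0.867 and 0.926 in non-BCSCs and 1.29, 1.52 and 1.22 in BCSCs. COL1A1 was below COL1A2 in each non-BCSC library and above it in each BCSC library. The gap between COL3A1 and COL1A1 closed, from 2.02, 1.96 and 1.82 COL3A1 per COL1A1 to 1.05, 0.888 and 1.12. In BCSCs the TPM means of COL3A1 and COL1A1 (256 and 252 TPM) did not differ beyond their spread.

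Type V collagen, which regulates the width of type I fibers, fell in 2 of its 3 chains. COL5A3 was at 33.4, 33.6 and 34.5 TPM in non-BCSCs against 13.6, 14.8 and 12.9 TPM in BCSCs (log2 fold change -1.24 ± 0.06, adjusted p = 5.28e-05). COL5A2 (chr2:189031898-189225312), the gene next to COL3A1, was at 174, 186 and 173 TPM against 116, 107 and 118 TPM (log2 fold change -0.64 ± 0.05, adjusted p = 0.00101). COL5A1 was at 199, 203 and 212 TPM against 161, 190 and 151 TPM, lower in every BCSC library but short of the threshold (log2 fold change -0.30 ± 0.08, adjusted p = 0.0764). Without BCSC replicate 2, the highest of the 3 BCSC libraries, its adjusted p was 0.00536. COL27A1, a fibrillar chain of cartilage and other tissues, was at 4.82 to 5.32 TPM and 3.80 to 4.63 TPM (adjusted p = 0.118).

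No type IV chain passed the test between the sorted fractions. COL4A1 was at 181, 185 and 187 TPM in non-BCSCs against 190, 189 and 189 TPM in BCSCs, a log2 difference of 0.04 ± 0.04 (adjusted p = 0.621). Its partner COL4A2 was at 168, 174 and 176 TPM against 186, 205 and 176 TPM (adjusted p = 0.254). For COL4A5, BCSC values of 44.7, 40.9 and 43.6 TPM lay under non-BCSC values of 48.8, 51.4 and 49.0 TPM, with an adjusted p of 0.0503, and it passed as lower with edgeR and DESeq2 on recovered reads and with median-of-ratios scaling. COL4A6 stayed low, at 2.80 to 3.68 TPM over the 6 libraries, and COL4A3 and COL4A4 were under the minimum.

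Among the others, COL22A1 and COL13A1 were higher in BCSCs and COL14A1 and COL7A1 were lower. COL22A1, a collagen known from tissue junctions such as that of muscle and tendon, was at 6.88, 7.53 and 6.29 TPM in non-BCSCs against 12.6, 13.1 and 13.0 TPM in BCSCs (1.87-fold, log2 fold change 0.82 ± 0.07, adjusted p = 0.00103). COL13A1, a transmembrane collagen of cell adhesion sites, went from 27.2, 28.6 and 28.5 TPM to 34.6, 38.6 and 32.0 TPM (log2 fold change 0.31 ± 0.07, adjusted p = 0.0396). Neither gene had overlapping groups. COL14A1, which sits on the surface of fibrils, was at 3.15, 3.01 and 3.08 TPM against 2.12, 1.87 and 1.79 TPM (log2 fold change -0.48 ± 0.08, adjusted p = 0.016). COL7A1, which forms the anchoring fibrils under epithelia, was at 188, 206 and 212 TPM against 168, 178 and 157 TPM (log2 fold change -0.27 ± 0.06, adjusted p = 0.0498), and leaving out any 1 library other than BCSC replicate 2 or changing the pseudocount, filter or scaling ended this call. The call of COL13A1 was also lost without any 1 of the non-BCSC libraries or BCSC replicate 1 (adjusted p up to 0.124) and with no minimum on low values (adjusted p = 0.0762), and that of COL14A1 without non-BCSC replicate 1 or 2 (adjusted p up to 0.0711).

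**Figure D3:**
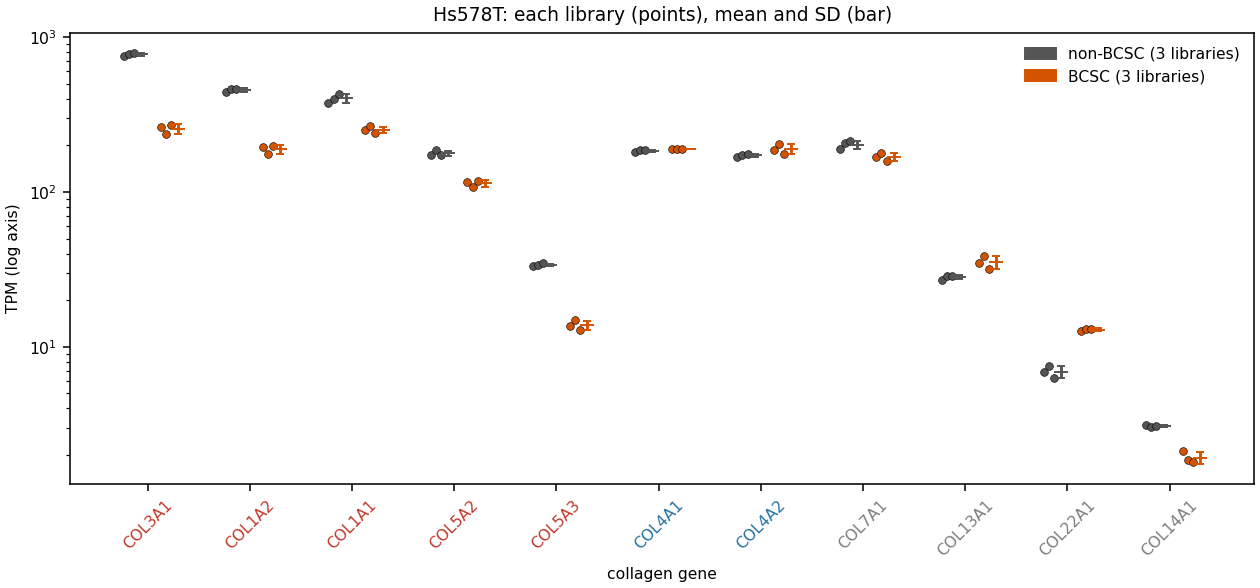
Points give the TPM of each Hs578T library on a log axis for 11 collagen genes, with the group mean and SD as a bar beside them, gray for non-BCSCs and orange for BCSCs. COL3A1, COL1A2 and COL5A3 were more than 2-fold lower in BCSCs without overlap, COL22A1 was higher, and COL4A1 lay at 181 to 190 TPM in all 6 libraries.

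COL6A3, a chain of the beaded filaments around cells, was the most abundant collagen of Hs578T by TPM, at 2800 ± 49.5 TPM in non-BCSCs against 2479 ± 118 TPM in BCSCs (adjusted p = 0.0853). It made up 43.3% of the collagen TPM in non-BCSCs and 49.8% in BCSCs. The other type VI chains were lower in 2 of the 3 BCSC libraries: COL6A1 was at 413 to 431 TPM in non-BCSCs against 328, 425 and 288 TPM in BCSCs, and COL6A2 at 329 to 364 TPM and at 284, 407 and 254 TPM. Here BCSC replicate 2 overlapped the non-BCSCs, as it did for COL18A1 (36.7 TPM, against 24.8 and 22.1 TPM in the other BCSC libraries). Without it, COL5A1, COL6A1, COL6A2 and COL18A1 were also called lower, for 13 called genes in place of 9. COL12A1, COL8A1, COL16A1 and COL17A1 did not pass (adjusted p of 0.321 to 0.881).

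Fibroblast markers moved with these genes. Of 7 such markers, all tested in Hs578T, 6 were lower in BCSCs (PDGFRB, THY1, DCN, LUM, FAP and POSTN), beside 4.26% of all genes tested. The summed level of the 7 was 1343 to 1387 TPM in non-BCSCs against 957 to 1059 TPM in BCSCs. DCN and LUM, small proteoglycans that bind collagen fibers, had log2 fold changes of -0.95 and -0.75, and PDGFRA was at 192 to 209 and 207 to 223 TPM. Of 7 epithelial markers, KRT18 was higher in BCSCs (302 to 334 TPM against 367 to 407 TPM, adjusted p = 0.0297), KRT8 and KRT14 did not pass, and the defining markers EPCAM and CDH1 were at or below 0.445 TPM. The epithelial list, most of it KRT18, summed to 322 to 351 TPM against 382 to 424 TPM, and the sorting gene ALDH1A3 was at 280 to 296 and 701 to 710 TPM. Of 5 mesenchymal markers, FN1 was lower in BCSCs, and VIM, CDH2, ZEB1 and TWIST1 did not pass. Their part in the collagen result was not tested.

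HCC70 cells, in which epithelial markers summed to 8413 to 9635 TPM and fibroblast markers to at most 3.80 TPM, held little collagen. The collagen genes summed to 109 ± 6.58 TPM in non-BCSCs against 92.5 ± 4.18 TPM in BCSCs. Of 34 genes listed, 6 had a mean of at least 1 TPM: COL18A1, COL4A5, COL1A1, COL9A2, COL13A1 and COL5A2. COL18A1, whose C-terminal part is released as endostatin, made up 46.9% of collagen TPM in non-BCSCs and 34.5% in BCSCs, and COL4A5 32.5% and 42.3%, so that their order was reversed. In 13 of the 28 genes under the minimum, no library had more than 3 reads, among them COL3A1 and COL4A1.

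COL18A1 was the 1 collagen gene of 6 that passed in HCC70, where 0.552% of 13218 genes tested were called lower and 2.28% higher. Its values were 62.0, 46.7 and 44.4 TPM in non-BCSCs against 31.1, 34.7 and 29.9 TPM in BCSCs (log2 fold change -0.65 ± 0.12, adjusted p = 0.0425). The groups did not overlap, but non-BCSC replicate 1 was well above the other non-BCSC libraries. Leaving out non-BCSC replicate 2 or any BCSC library ended the call (adjusted p up to 0.153), as did median-of-ratios scaling and testing with no minimum, whereas edgeR and DESeq2 on recovered reads kept it. COL13A1 was at 4.91, 4.94 and 5.26 TPM against 4.26, 4.48 and 3.65 TPM (adjusted p = 0.172), so that 2 of 6 genes lay wholly lower and 0 wholly higher, against 10.1% and 20.9% of genes tested. COL1A1, at 6.33, 7.01 and 6.40 TPM against 6.26, 6.72 and 6.63 TPM, had a log2 difference of -0.01 ± 0.08 (adjusted p = 0.961). COL4A5 was at 31.8, 35.7 and 38.8 TPM against 38.7, 40.1 and 38.7 TPM (adjusted p = 0.289). The median log2 fold change of the 6 genes was 0.06, beside 0.02 over all genes tested.

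COL5A1, under the minimum in HCC70 and named here after its values were seen, had 25, 21 and 38 reads in non-BCSCs and 2, 4 and 0 reads in BCSCs. The ratio of the summed reads, scaled by depth, was 0.0629 (95% interval 0.0225 to 0.143, counting error only). With no minimum on the values its adjusted p was 0.0308 (limma).

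Whether the BCSC effect differed between the lines could be tested for 5 collagen genes, and 4 passed, against 7.11% of 11668 genes in that fit (5.62% negative and 1.49% positive, or 3.63% and 2.64% with median-of-ratios scaling). COL5A2 fell in Hs578T (log2 fold change -0.64) and was at 0.14 in HCC70, a difference of -0.78 ± 0.09 (Hs578T minus HCC70, adjusted p = 0.0011). COL1A1 differed by -0.66 ± 0.09 (adjusted p = 0.00178), COL13A1 by 0.54 ± 0.11 (adjusted p = 0.0142) and COL4A5 by -0.35 ± 0.09 (adjusted p = 0.043). COL13A1 had opposite signs in the 2 lines, at 0.31 and -0.24. For COL18A1 the difference of 0.56 ± 0.23 did not pass (adjusted p = 0.138). Removing 1 library at a time kept COL1A1 and COL5A2 past the threshold in every fit, as it did COL13A1, whose call was lost with a replicate block (adjusted p = 0.05004). COL4A5 lost its call with the block (adjusted p = 0.0827), with median-of-ratios scaling (adjusted p = 0.0804) and without any 1 of 10 of the 12 libraries (adjusted p up to 0.111), the exceptions being Hs578T BCSC replicate 3 and HCC70 non-BCSC replicate 3.

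In MDA-MB-231 cells with KIF20A sg1, no collagen gene passed: 0 of 20 tested, where limma called 0% of 12852 genes. Of the collagen genes, edgeR and DESeq2 called 0 as well, with 0 and 11 of all genes. At an unadjusted p under 0.05, limma counted 5 of the 20 collagen genes and 899 of all genes. Values were lower on average in 17 of the 20, with a median log2 difference of -0.31 beside 0.00 over all genes, but the groups lay wholly apart for only 2 (both lower in KIF20A sg1, against 7.3% of genes tested) and 0 lay wholly higher, against 5.73%. By type the median was -0.32 for 4 fibrillar genes, -0.55 for 4 type IV genes and -0.28 for 12 others.

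Of other markers, 7 fibroblast genes summed to 12.1 to 17.4 in sgCtrl and to 9.78 to 11.5 in KIF20A sg1, with 1 of them tested, which did not pass, and their part in these values was not tested.

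The 3 collagen genes with the smallest p were type IV chains. COL4A2 was at 330, 317 and 202 in sgCtrl and 151, 197 and 146 in KIF20A sg1 (log2 difference -0.76 ± 0.19, adjusted p = 0.69). COL4A1 was at 92.5, 95.1 and 69.3 against 51.4, 69.6 and 57.6 (-0.51 ± 0.16, adjusted p = 0.69), and COL4A4, a chain known from the kidney filter, at 6.25, 4.00 and 5.11 against 3.14, 3.43 and 2.62 (-0.58 ± 0.19, adjusted p = 0.69). COL4A2 and COL4A4 separated the groups, and COL4A1 overlapped by 1 library on each side. COL4A5 was at 13.7 to 19.5 and 14.7 to 17.7, with a log2 difference of -0.12 ± 0.17.

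The library sgCtrl replicate 3 stood apart in several of these genes. COL5A1 was at 648, 656 and 327 in sgCtrl, COL6A3 at 71.2, 71.6 and 23.2, COL18A1 at 284, 276 and 116, and COL6A1 at 269, 267 and 128. In each, replicate 3 was below the other 2 sgCtrl libraries by more than they differed from each other, while COL8A1 was at 161, 193 and 232 and went the other way. Without replicate 3, 4 collagen genes passed as lower in KIF20A sg1, and limma called 144 of all genes. These were COL4A2 (log2 difference -0.98, adjusted p = 0.0276), COL6A3 (-1.21, adjusted p = 0.0339), COL9A2 (-0.91, adjusted p = 0.0382) and COL16A1 (-1.07, adjusted p = 0.0457).

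Fibrillar genes did not separate the sgRNA groups. COL1A1 was at 10.9, 13.4 and 8.93 in sgCtrl and 11.0, 10.1 and 14.6 in KIF20A sg1 (log2 difference 0.09 ± 0.19, adjusted p = 0.923). COL1A2 was tight in sgCtrl, at 28.4, 27.0 and 27.7, and scattered in KIF20A sg1, at 13.6, 39.8 and 7.39 (adjusted p = 0.708). COL3A1 had at most 6 reads in any of the 6 libraries and was not tested. COL12A1, which decorates fibrils, was at 356 to 431 in sgCtrl and at 338, 780 and 303 in KIF20A sg1, where replicate 2 stood alone. Per kilobase of exon, COL5A1 led both groups, at 48.7 ± 16.8 in sgCtrl and 36.5 ± 12.0 in KIF20A sg1, and its lead over COL6A1 (40.0 ± 14.6 and 32.1 ± 4.25) was within their spread.

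**Figure D4:**
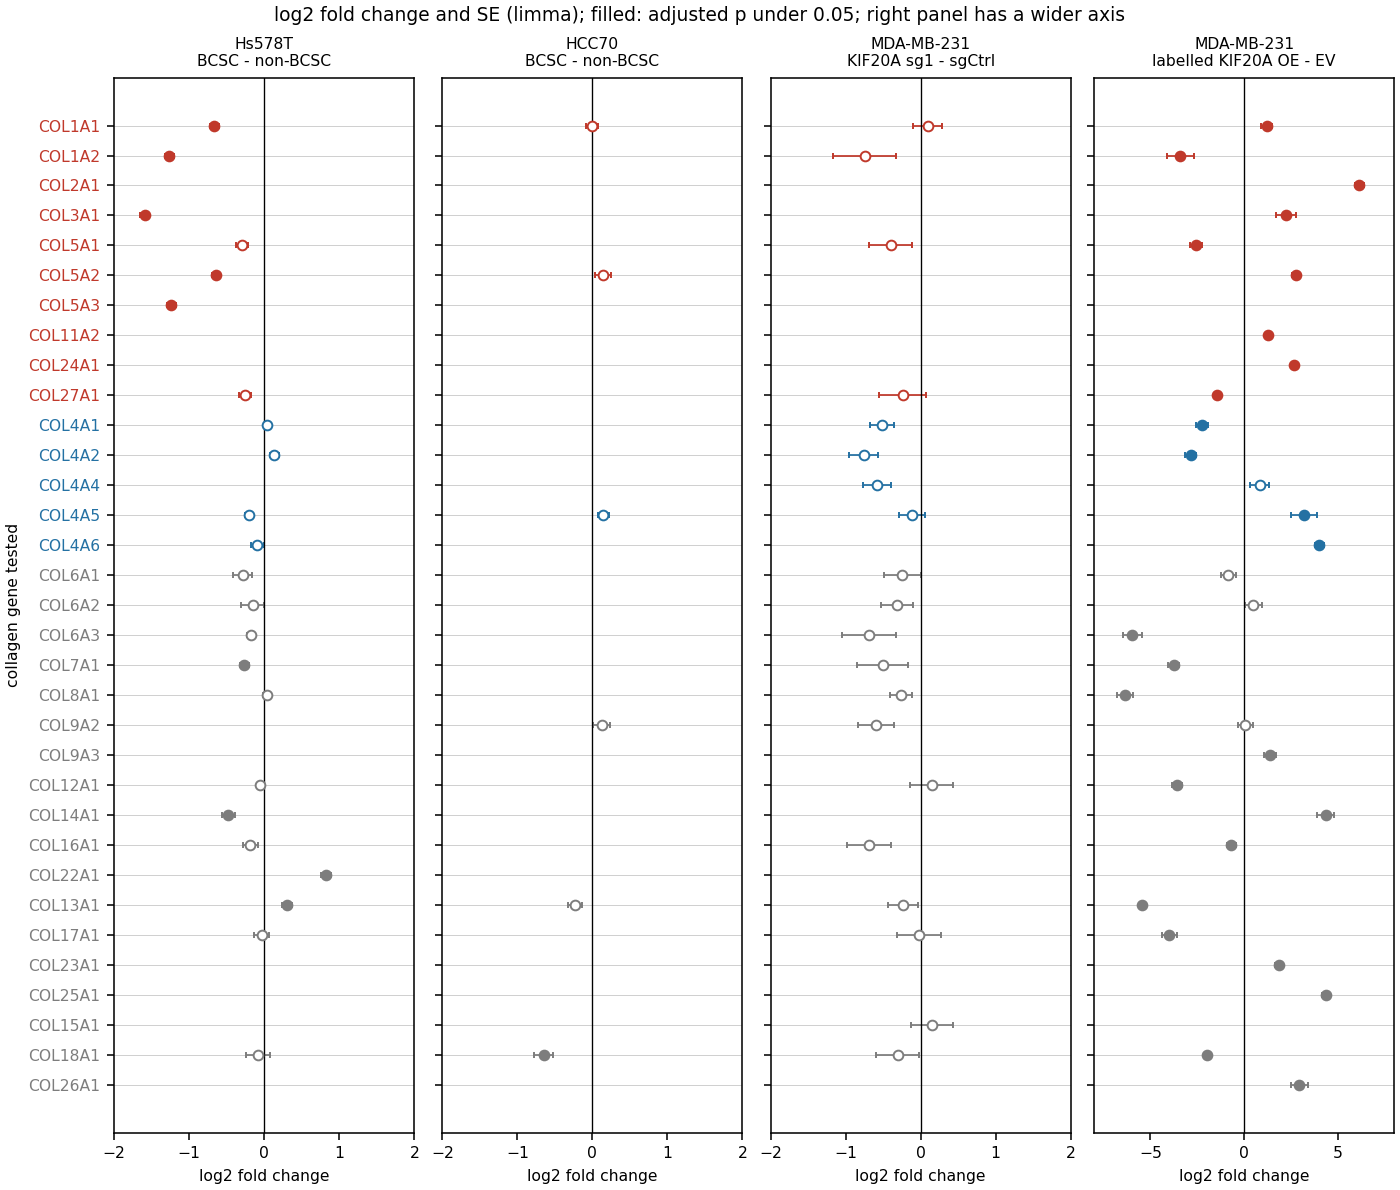
Points give the log2 fold change with its SE for each collagen gene tested, with 1 panel per comparison, red for fibrillar, blue for basement membrane and gray for other genes, and filled where the adjusted p was under 0.05. The panel of the OE-labelled libraries has a wider axis. Fibrillar genes lay left of 0 in Hs578T, no point was filled for KIF20A sg1, and 26 of 30 points were filled for the OE-labelled libraries.

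The OE-labelled libraries held a different set of collagens from EV. The collagen sum was 3213, 1840 and 3033 CPM in EV against 809, 883 and 987 CPM in them. Of 30 collagen genes tested, 13 were higher and 13 lower, where 46.2% of 15265 genes tested were called higher and 23.4% lower (34.7% and 32.1% with median-of-ratios scaling). Calls were thus the rule in this comparison. The groups lay wholly apart for the same numbers, 13 higher and 13 lower, against 48.9% and 25.2% of genes. The median log2 fold change over all genes was 0.37 with the deposited values and 0.05 once libraries were rescaled by median of ratios, and of the 30 genes tested COL9A2 alone turned direction with that rescaling. Changes are given from the deposited values, and for the smallest ones also relative to the median of 0.37. Of the genes tested, 9 reached the mean of 1 CPM only through the OE-labelled libraries and 3 only through EV, so counts over the tested genes say nothing of the family as a whole. Fibroblast markers summed to 2.86 to 15.2 CPM in EV and 1.61 to 2.80 CPM in the OE-labelled libraries, with 1 of 7 tested and lower (PDGFRB), and endothelial markers to 12.9 to 17.2 CPM and 0.589 to 36.0 CPM, with 2 of 3 tested and 1 lower (CDH5). Their part in the collagen values was not tested.

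By type, 6 fibrillar genes were higher and 3 lower, 2 type IV genes higher and 2 lower, and 5 of the others higher and 8 lower. Over all genes tested, 46.2% were called higher and 23.4% lower. COL2A1, COL24A1, COL5A2, COL11A2, COL4A6, COL25A1, COL23A1, COL14A1 and COL26A1 reached the minimum only through the OE-labelled libraries. COL1A2, COL8A1 and COL17A1 reached it only through EV, so the minimum favored the direction of all these genes. The minimum was not reached by 14 collagen genes. No gene of any kind at 0 in all 6 libraries was listed for the vector experiment. With no minimum, COL19A1, COL9A1 and COL5A3 were called higher and COL15A1 lower. Per kilobase of exon, COL6A1 led in both groups, at 79.7 ± 39.8 CPM in EV against 39.9 ± 7.57 CPM in the OE-labelled libraries, followed by COL18A1 and COL5A1 in EV and by COL6A2 and COL2A1 in the others.

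COL2A1 (chr12:47972967-48004554), the chain of the fibrillar collagen of cartilage, showed the largest increase. It had 0, 2 and 0 reads in EV and was at 52.9, 93.1 and 76.6 CPM in the OE-labelled libraries, with a log2 fold change of 6.15 ± 0.24 (adjusted p = 2.55e-07). Its summed reads gave a ratio of 2242 (95% interval 620 to 18520, counting error only). COL24A1, another fibrillar chain, had 2 reads in EV in all and was at 6.20, 4.55 and 6.21 CPM in the other group, a ratio of 163 (interval 44.8 to 1353), with a log2 fold change of 2.67 ± 0.19 (adjusted p = 6.78e-06). COL11A2, which joins cartilage fibrils, went from 0.476, 0.483 and 1.06 CPM to 3.07, 3.29 and 2.78 CPM (log2 fold change 1.29 ± 0.20, adjusted p = 0.000592, and 0.92 relative to the median). The other type XI gene, COL11A1, was under the minimum and went the other way, with 66 reads in EV and 4 in the OE-labelled libraries. Its ratio was 0.0626 (interval 0.0166 to 0.168), and with no minimum it did not pass (adjusted p = 0.069, limma).

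The type I chains parted. COL1A1 was at 33.1, 20.4 and 51.7 CPM in EV against 74.6, 82.2 and 74.5 CPM in the OE-labelled libraries (log2 fold change 1.21 ± 0.29, adjusted p = 0.00556, and 0.83 relative to the median). COL1A2 was at 10.1, 2.13 and 32.6 CPM in EV and had no read in any of the others, at least 262-fold lower by a floor of 3 reads over the group (adjusted p = 0.00296), a bound that was 117-fold without EV replicate 3. In the OE-labelled libraries the first chain was thus above its level in every EV library while the second was not detected. COL3A1 was at 0.524, 0.290 and 2.23 CPM against 4.32, 17.7 and 5.57 CPM (log2 fold change 2.23 ± 0.52, adjusted p = 0.00482) and its neighbor COL5A2 at 0.714, 0.918 and 1.00 CPM against 13.6, 13.5 and 8.78 CPM (2.77 ± 0.22, adjusted p = 1.29e-05). COL5A1 went the opposite way, from 471, 185 and 306 CPM to 53.2, 36.2 and 63.2 CPM (-2.57 ± 0.33, adjusted p = 0.000197), and COL27A1 fell from 66.4 to 96.0 CPM to 25.9 to 30.6 CPM (-1.46 ± 0.16, adjusted p = 8.57e-05).

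Among type IV genes, COL4A1 and COL4A2 were lower and COL4A5 and COL4A6 higher. COL4A1 was at 187, 80.3 and 149 CPM in EV against 19.4, 36.5 and 27.7 CPM in the OE-labelled libraries (log2 fold change -2.24 ± 0.33, adjusted p = 0.000407). COL4A2 was at 443, 269 and 319 CPM against 31.2, 73.0 and 42.7 CPM (-2.84 ± 0.30, adjusted p = 6.68e-05). Both genes of this pair were thus lower in every library of the second group than in any EV library. COL4A5 was at 0.714, 2.13 and 14.2 CPM against 39.3, 35.7 and 40.7 CPM (3.19 ± 0.68, adjusted p = 0.00315) and COL4A6 at 0, 0 and 0.529 CPM against 14.2, 21.1 and 18.0 CPM (4.01 ± 0.25, adjusted p = 3.11e-06). The pair on chrX was higher in every library of the second group, with EV replicate 3 the highest of the EV libraries for both genes. COL4A4 was at 0.857, 0.967 and 4.41 CPM against 3.19, 1.89 and 8.08 CPM and did not pass (adjusted p = 0.185), although it did without EV replicate 3.

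**Figure D5:**
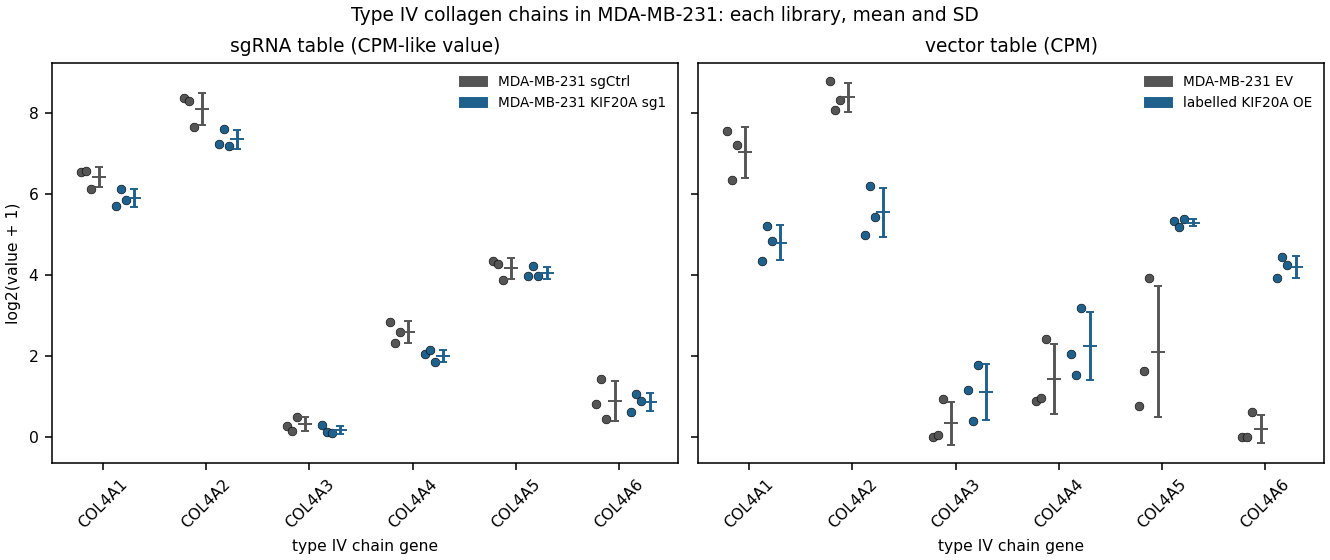
Points give log2(value + 1) of the 6 type IV genes in each MDA-MB-231 library, with the group mean and SD as a bar, for the sgRNA table (left) and the vector table (right). In the vector table COL4A1 and COL4A2 were lower and COL4A5 and COL4A6 higher in the OE-labelled libraries, without overlap, while in the sgRNA table COL4A2 and COL4A4 were apart but short of the threshold.

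COL8A1 and COL6A3 were also lower in the OE-labelled libraries. COL8A1 (chr3:99638475-99799226), a network collagen of vessel walls and stroma, was at 248, 74.6 and 106 CPM in EV against 0.376, 0.947 and 0.375 CPM in them (log2 fold change -6.35 ± 0.41, adjusted p = 3.72e-06). COL6A3 (chr2:237324003-237414328) was at 363, 248 and 462 CPM against 4.01, 11.5 and 1.82 CPM (-5.95 ± 0.49, adjusted p = 1.51e-05). Its partner chains did not pass. COL6A1 was at 587, 188 and 549 CPM against 202, 192 and 269 CPM (adjusted p = 0.0897) and COL6A2 at 55.9, 32.1 and 138 CPM against 92.1, 67.1 and 115 CPM (adjusted p = 0.363). COL6A1 passed as lower with median-of-ratios scaling, with edgeR and DESeq2 and without EV replicate 2, and COL6A2 passed as higher without EV replicate 3.

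Transmembrane collagens split within their class. COL13A1 (chr10:69801880-69964275) was at 82.3, 95.6 and 96.6 CPM in EV against 0.877, 1.26 and 1.18 CPM in the OE-labelled libraries (log2 fold change -5.46 ± 0.17, adjusted p = 1.13e-07). COL17A1, a hemidesmosome protein of epithelia, was at 24.4, 47.6 and 17.8 CPM against 0.25, 0.947 and 1.39 CPM (-3.98 ± 0.38, adjusted p = 3.67e-05). COL25A1, known from neurons and muscle innervation, had 3 reads in EV in all and was at 19.5, 25.2 and 18.5 CPM in the other group, a ratio of 419 (interval 143 to 2035, adjusted p = 6.45e-07). COL23A1 had 2 reads in EV and was at 2.32, 2.98 and 2.78 CPM, a ratio of 80.1 (interval 21.8 to 667, adjusted p = 3.23e-05). So 2 of the 4 transmembrane genes were lower and 2 higher, none with overlapping groups. Of these, COL17A1 reached the minimum only through EV, and COL25A1 and COL23A1 only through the OE-labelled libraries.

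Of the collagens that sit on fibrils, COL12A1 was lower, at 64.3, 91.1 and 62.4 CPM in EV against 6.01, 2.98 and 6.91 CPM in the OE-labelled libraries (log2 fold change -3.59 ± 0.28, adjusted p = 1.19e-05). COL14A1 had 4 reads in EV in all and was at 27.1, 8.34 and 38.1 CPM (4.34 ± 0.47, adjusted p = 7.33e-05), and COL9A3, a chain of cartilage type IX, went from 1.12 to 1.62 CPM to 2.70 to 7.58 CPM (1.39 ± 0.31, adjusted p = 0.00416, and 1.01 relative to the median). COL16A1 was at 3.00 to 4.67 CPM and 1.45 to 2.88 CPM (-0.67 ± 0.25, adjusted p = 0.0372, and -1.05 relative to the median), a call lost without EV replicate 1 or 3 or OE-labelled replicate 2 or 3 (adjusted p up to 0.123) and with no minimum on low values (adjusted p = 0.0539). COL9A2 was at 3.53 to 14.6 CPM and 7.76 to 8.52 CPM and did not pass (adjusted p = 0.886), with a log2 difference of 0.07 that became -0.24 with median-of-ratios scaling.

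COL7A1 was at 172, 151 and 342 CPM in EV against 15.3, 16.4 and 12.0 CPM in the OE-labelled libraries (-3.75 ± 0.29, adjusted p = 1.1e-05). COL18A1 was at 386, 245 and 269 CPM against 66.4, 69.6 and 90.3 CPM (-1.96 ± 0.19, adjusted p = 4.4e-05). COL26A1, known from the testis and ovary, had no read in EV and was at 2.69, 15.3 and 6.58 CPM in the other group, at least 174-fold higher by the floor of 3 reads (adjusted p = 0.000618), or 93.7-fold without OE-labelled replicate 2. In each of these 3 genes the groups were wholly apart.

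The proteins that modify, export, trim and cross-link collagen chains, bind them or cut them were read as a list of 45 genes. Of 37 tested in Hs578T, edgeR called 13 and DESeq2 15, beside 1646 and 1418 of 13324 genes tested. By limma, 8 were lower in BCSCs and 1 higher, beside 4.26% and 2.9% of all genes tested. The lower ones were the prolyl hydroxylase subunits P4HA1 and P4HA2, the lysyl hydroxylases PLOD1 and PLOD2, the propeptide-removing genes ADAMTS14, BMP1 and PCOLCE, and the membrane collagenase MMP14. P4HA1 went from 194, 188 and 169 TPM to 135, 129 and 134 TPM (log2 fold change -0.46 ± 0.06, adjusted p = 0.00494), and ADAMTS14 from 37.5, 40.0 and 43.9 TPM to 26.6, 26.7 and 26.4 TPM (-0.59 ± 0.06, adjusted p = 0.00208). ITGA2, a collagen-binding integrin chain, was higher, at 75.8, 75.1 and 69.0 TPM against 111, 110 and 112 TPM (0.59 ± 0.05, adjusted p = 0.00101). The cross-linking list of LOX and its relatives had 0 of 4 tested called by limma, with a sum of 999 to 1078 TPM and 948 to 971 TPM, while 2 had an unadjusted p under 0.05 and edgeR and DESeq2 each called LOXL3.

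In HCC70, 0 of 28 list genes tested were called by limma, 7 had an unadjusted p under 0.05, edgeR called ITGA2 and LOX, and DESeq2 these and P4HA2. For KIF20A sg1, 0 of 34 were called by limma, edgeR and DESeq2, and 2 had an unadjusted p under 0.05 in limma. In the vector experiment, edgeR and DESeq2 each called 38 of 42, beside 9931 and 10185 of 15265 genes tested. By limma, 13 were higher and 19 lower in the OE-labelled libraries, beside 46.2% and 23.4% of all genes tested (34.7% and 32.1% with median-of-ratios scaling). MMP14 was at 2036, 1322 and 2037 CPM in EV against 5.07, 2.03 and 2.57 CPM in them (-8.77 ± 0.28, adjusted p = 1.18e-07). Cross-linking genes LOX, LOXL1, LOXL2 and LOXL4 were lower and LOXL3 higher, with a list sum of 629 to 1395 CPM and 119 to 165 CPM. FKBP10, a collagen chaperone, went from 0.381, 0.290 and 3.23 CPM to 228, 237 and 213 CPM (6.85 ± 0.42, adjusted p = 2.78e-06), while the chaperone SERPINH1 fell from 290, 209 and 290 CPM to 153, 98.5 and 137 CPM (-1.03 ± 0.20, adjusted p = 0.00177).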

How the data were processed

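Stranded poly-A libraries of biological triplicates were sequenced with paired ends. No source says whether triplicates came from separate cultures, so p-values measure the spread between these libraries only. The submitters' processing notes name GRCh38, HISAT2 2.0.5 and featureCounts 1.5.0-p3, and the annotation was not given in the sources used here. The deposited tables of the sorted lines hold TPM, those of the vector experiment CPM, and those of the sgRNA experiment a signal that the authors named CPM, in which each library's reads are divided by a factor of its own. Whole reads were recovered for 100% of values in each table (within 0.01 of a whole number, 0.003 for TPM). On simulated Hs578T data 97.8% of TPM genes had exact reads and the rest were divided by a common divisor.

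Members and gene lists were chosen with earlier results of these data known. Each comparison was fitted alone with limma 3.58.1 (R 4.3.3), with a trend in the prior variance, two-sided, a pseudocount of 1 and a minimum mean of 1. The interaction of fraction and line used the 12 sorted libraries. Called genes are named with full statistics, as are COL1A1, COL3A1 and COL4A1 where tested, and, where none passed, the 3 with the smallest p. On simulated data limma called 199, 198, 200 and 200 of 200 genes changed 2-fold in Hs578T, HCC70, the sgRNA and the vector design. Of its calls there, 6.13%, 7.91%, 5.21% and 4.76% were false. In the real sgRNA libraries MMP1 had a log2 difference of 2.53 ± 0.59 and was not called (adjusted p = 0.69, limma). The simulated rates thus do not carry over to those libraries, and they do not tell what 0 calls there mean. In the simulated vector design 200 of 13747 genes were changed, while in the real vector libraries 10634 of 15265 genes were called. The simulated rates were therefore not shown to hold for the vector libraries either. Alternatives were a pseudocount of 0.1, no minimum, median of ratios, a replicate block, edgeR 4.0.16, DESeq2 1.42.0, the criteria of the study and each library left out. Those criteria were a log2 fold change beyond 0.4 in either direction with unadjusted p under 0.05. The paper states them for the sorted lines, and here they were applied with the limma p to the sgRNA and vector experiments too. For OXPHOS genes of the KIF20A experiments the paper names a smaller fold change. Exon lengths and positions came from GENCODE 44. Tables were handled in Python 3.11.15 with pandas 2.3.3.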

Additional observations from a re-analysis of the deposited data

Results flagged for a closer look

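The BCSC effect of 4 collagen genes differed between Hs578T and HCC70 by the interaction of fraction and line (limma, adjusted over 11668 genes). The difference, Hs578T minus HCC70 on the log2 scale, was -0.78 for COL5A2, -0.66 for COL1A1, 0.54 for COL13A1 and -0.35 for COL4A5. COL1A1 and COL5A2 kept the call in each of 15 alternatives, COL13A1 in 14 (not with the replicate block) and COL4A5 in 3. Each line has its own batch label, so the line and the batch cannot be told apart.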

How the results depend on the processing

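In Hs578T, 9 collagen genes were called and 6 to 13 with 1 library left out. With no minimum, 8 were called there, with the fibrillar gene COL24A1 gained as lower (adjusted p = 0.0383, limma) and COL13A1 and COL7A1 lost. In HCC70, 1 was called, and 0 with the median of ratios, 0 with the replicate block and 0 to 1 with 1 library left out. With no minimum the 1 gene called there was COL5A1 in place of COL18A1. For KIF20A sg1, 0 were called and 0 to 4 with 1 library left out. The 4 came without sgCtrl replicate 3, where 144 of 12886 genes tested were called. By the criteria of the study for the sorted lines, 5 of 20 collagen genes passed. All genes were not counted by those criteria, and 899 of 12852 had an unadjusted p under 0.05 (limma). For the OE-labelled libraries, 26 were called, 29 with no minimum and 25 to 28 with 1 library left out. The difference between the lines had 4 calls, 3 with the median of ratios, 2 with the replicate block and 3 to 4 with 1 library left out, the last chosen after seeing the data. COL1A1, far from the threshold, changed sign with 1 library left out in HCC70 (-0.031 to 0.033) and for KIF20A sg1 (-0.052 to 0.23). In no comparison did every same-numbered pair correlate above 0.1, so the numbers were not read as pairs. The 3 pairs of the vector experiment lay between 0.014 and 0.058, each library correlating best with its own number, a hint from the data only. In the sgRNA experiment the same-numbered pairs were at -0.045, -0.112 and -0.161. Higher values there joined sgCtrl 2 with KIF20A sg1 1 (0.276), sgCtrl 3 with KIF20A sg1 2 (0.254) and sgCtrl 1 with KIF20A sg1 3 (0.262). No block by such shifted pairs was fitted. Besides the counts above, the replicate block ended the call of COL7A1 in Hs578T and added COL4A4 and COL6A1 in the OE-labelled libraries. Over all genes, 953 calls in Hs578T became 1646 with edgeR and 343 to 865 with 1 library left out. In HCC70, 374 became 715 with edgeR, 1167 with DESeq2, 231 with the median of ratios, 178 with no minimum, 128 with the block and 32 to 270 with 1 library left out. For the difference between the lines, 830 became 302 with the block and 291 to 1225 with 1 library left out. The causes of these moves were not tested. The lowest depth was 15971297 reads, and genes with 3 reads or fewer in a group give only a bound or an interval.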
